A study of Mus musculus with 4 samples.

Results

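The genes described here were 10 members of the fibroblast growth factor (FGF) system, the 6 ligands Fgf1, Fgf2, Fgf7, Fgf10, Fgf18 and Fgf21 and the 4 receptors Fgfr1, Fgfr2, Fgfr3 and Fgfr4, taken by symbol from the 32285 genes of the deposited counts, where each symbol occurred once. They were followed through 4 single-cell RNA-seq libraries of tibial muscle of Nse-Bmp4 mice on the C57BL/6 strain at 6-8 weeks of age, in which the rat neuron-specific enolase promoter drives a murine Bmp4 cDNA with an SV40 polyadenylation signal, so that every group, the uninjured one included, carried the transgene. The muscles were uninjured (Uninjured) or had been injected with cardiotoxin, a snake venom toxin that destroys muscle fibres, and were taken on day 1, day 3 or day 7 after the injection (1, 3 and 7 dpi, days post injury). Each library pooled 3 tibial muscles after collagenase digestion, and each time point was 1 library. No test between time points was therefore possible, and a difference between time points could not be told apart from a difference between libraries. After filtering, 52796 of 62665 cells were kept, 10311 in Uninjured, 9582 at 1 dpi, 12564 at 3 dpi and 20339 at 7 dpi, with a median of 8547, 5817.5, 4149 and 2846 transcripts (unique molecular identifiers, UMIs) per cell. Any pair of libraries had 30 to 95 barcode sequences in common. No class of muscle fibres was among those gated here, so none could be found. The 4 genes of mature fibres Acta1, Ckm, Ttn and Tnnt3 summed to 24.5, 10.4, 98.8 and 73.8 of every 1000000 UMIs over all cells in that order.

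FGF ligands are secreted proteins that bind receptor tyrosine kinases together with heparan sulfate chains, and the activated receptors signal through docking proteins to the MAP kinase cascade, which also switches on inhibitors of the pathway such as the Sprouty and Dusp proteins. Fgf21 belongs to the endocrine branch, whose members need a Klotho co-receptor. In skeletal biology Fgf18 and Fgfr3 are best known for the growth plate, where Fgfr3 restrains the proliferation of chondrocytes, and activating changes in human FGFR3 cause achondroplasia. Fgf2 is a mitogen for muscle satellite cells and for mesenchymal progenitors, Fgf7 and Fgf10 act mainly on epithelia through a splice form of Fgfr2, and Fgfr4 is a receptor of the myogenic lineage. The counts were per gene, so the epithelial and mesenchymal splice forms of Fgfr1, Fgfr2 and Fgfr3 could not be told apart.

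The promoters of 4 members are shown because the results given further on turn on these genes. Fgf18 was the ligand past 2-fold lower at 1 dpi, Fgfr2 and Fgfr3 were higher in chondrocytes than in the other mesenchymal cells, and most Fgfr4 UMIs that could be assigned lay in myogenic cells. Each sequence runs 5′ to 3′ on the strand of the gene from 250 bases before the RefSeq start to 50 bases after it, on build GRCm38.p6. These were chr11:33147351-33147650 (minus strand) for Fgf18, chr7:130266759-130267058 (minus strand) for Fgfr2, chr5:33721474-33721773 (plus strand, the first of 2 entries) for Fgfr3 and chr13:55152568-55152867 (plus strand) for Fgfr4. Capitals mark matches on either strand to any of 5 motifs of 6 letters searched, GGGCGG (the GC box bound by Sp1), TATAAA (the TATA box), CAGCTG (an E-box of myogenic factors), ACAATG (a core of Sox factors) and TGTGGT (the core of Runx factors).
Fgf18: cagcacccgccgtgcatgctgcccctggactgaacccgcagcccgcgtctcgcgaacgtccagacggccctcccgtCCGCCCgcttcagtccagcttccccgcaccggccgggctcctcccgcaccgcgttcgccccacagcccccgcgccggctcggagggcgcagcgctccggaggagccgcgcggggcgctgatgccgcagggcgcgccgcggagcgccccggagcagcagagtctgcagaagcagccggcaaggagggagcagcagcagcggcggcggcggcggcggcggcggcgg
Fgfr2: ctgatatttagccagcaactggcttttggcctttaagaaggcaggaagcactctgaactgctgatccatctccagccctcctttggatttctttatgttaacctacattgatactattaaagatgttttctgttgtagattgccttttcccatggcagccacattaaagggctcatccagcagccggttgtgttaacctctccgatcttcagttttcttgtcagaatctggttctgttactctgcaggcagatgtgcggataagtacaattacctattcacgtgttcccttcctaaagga
Fgfr3: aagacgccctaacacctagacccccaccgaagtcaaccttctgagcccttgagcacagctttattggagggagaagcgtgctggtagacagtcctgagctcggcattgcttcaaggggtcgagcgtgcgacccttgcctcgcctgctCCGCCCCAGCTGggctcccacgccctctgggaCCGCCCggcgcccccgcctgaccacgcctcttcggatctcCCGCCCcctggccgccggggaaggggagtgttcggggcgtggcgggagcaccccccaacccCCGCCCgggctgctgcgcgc
Fgfr4: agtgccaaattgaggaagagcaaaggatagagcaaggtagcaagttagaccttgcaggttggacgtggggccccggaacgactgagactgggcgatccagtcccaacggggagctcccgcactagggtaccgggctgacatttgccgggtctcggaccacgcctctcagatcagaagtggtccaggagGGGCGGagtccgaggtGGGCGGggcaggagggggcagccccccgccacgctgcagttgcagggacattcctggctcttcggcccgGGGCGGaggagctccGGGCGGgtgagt
GC boxes were the most frequent match, with 4 in the Fgfr3 promoter, 4 in that of Fgfr4, 1 in that of Fgf18 and 0 in that of Fgfr2. The first Fgfr3 entry also held 1 E-box of the form CAGCTG, directly next to a GC box. Of the 32851 promoters of the same length in the table, 35.7% held a GC box, 16.3% that E-box, 13.6% the TATA box, 12.6% the Sox core and 16.8% the Runx core. The bases G and C made up 78.7% of the Fgf18 sequence, 69.7% of Fgfr3, 65.3% of Fgfr4 and 43.7% of Fgfr2, against a median of 52.7% over all promoters in the table. A match of letters is a description only, and its absence holds only for these letters in this window.

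Cells were assigned to classes by counting how many of 8 marker genes of each class carried a UMI, and no FGF gene served as a marker. The level of a gene in a class is given as CPM, its UMIs summed over the cells of the class per 1000000 UMIs of those cells. Exact 95% intervals are given in parentheses after a ratio. They hold the error of counting UMIs and leave out how mice and libraries vary. Levels are compared between cells for the same gene and not between genes, since capture of a transcript differs from gene to gene. The mesenchymal class (fibroblasts, progenitors and tenocytes, without chondrocytes) held 8410, 3819, 6079 and 10875 cells in Uninjured and at 1, 3 and 7 dpi, and 4312 chondrocytes were found at 7 dpi. As a check with genes that no gate used, Ptprc, the common leukocyte antigen, reached 0.661 to 15.8 CPM in the mesenchymal class against 408 to 1734 CPM in B cells and in NK or T cells. Sox9, the transcription factor of cartilage, stood at 315 CPM in the chondrocytes and at 119 CPM in the other mesenchymal cells of the same library. A level at 0 UMIs is read as a limit of 3 UMIs.

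B cells and NK or T cells, which should lack most of these genes, showed the level that free RNA in the droplets can give. In their 8 combinations of class and library, Fgf10, Fgf21, Fgfr3 and Fgfr4 stood at 3 UMIs or fewer each, Fgf1 at 7.43 CPM or less, Fgf2 at 3.17 or less, Fgf7 at 2.09 or less, Fgf18 at 8.96 or less, Fgfr2 at 2.93 or less, and Fgfr1 between 4.79 and 13.6 CPM. The highest of these came from B cells at 7 dpi with 2 UMIs for Fgf1 and from B cells of Uninjured with 5 UMIs for Fgf18. The median UMIs per cell were 1454 to 2838 in the B cells and 2120 to 4303.5 in the NK or T cells, against 3207 to 9028 in the mesenchymal cells. A level at or under these values is not read as clear of background. The values were pooled over the libraries, so such a level can still exceed the B and NK or T cells of its own library.

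**Figure D1:**
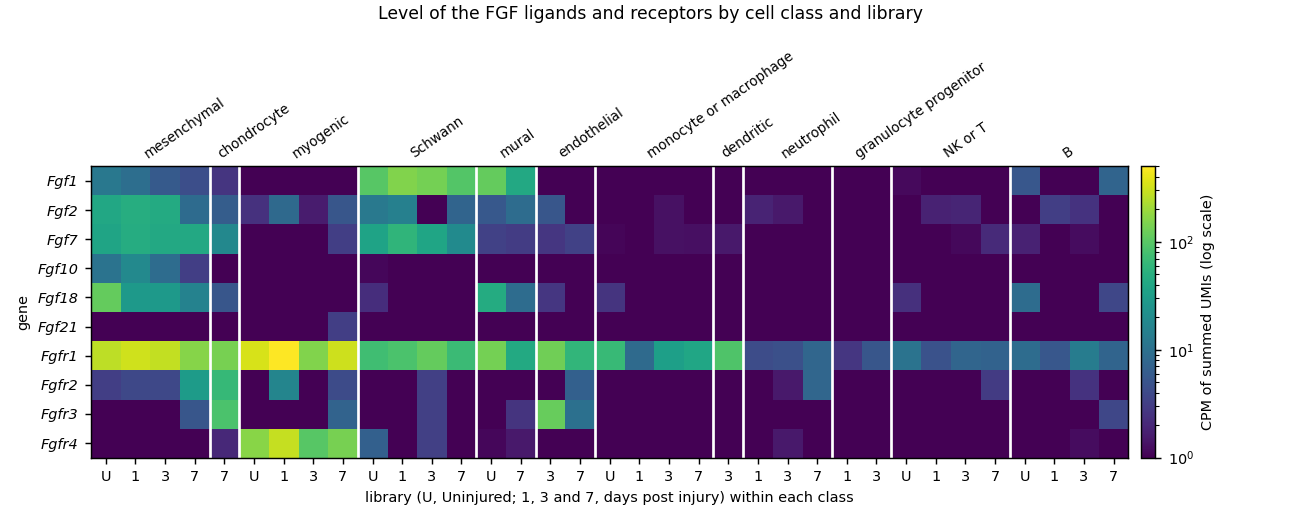
CPM of the 10 FGF genes (rows) in each cell class and library with at least 50 cells (columns, grouped by class; U, Uninjured; numbers, days post injury), on a logarithmic color scale on which the darkest color stands for 1 CPM or less. Fgfr1 was above its B and NK or T cell level in every mesenchymal, chondrocyte, myogenic, Schwann, mural and endothelial column, while Fgfr4 stood out in the myogenic columns and Fgfr3 in the chondrocytes at 7 dpi and the endothelial cells at 3 dpi.

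Most of the ligand transcripts lay in mesenchymal cells, which were also the largest class. They were 81.6%, 39.9%, 48.4% and 53.5% of the kept cells in Uninjured and at 1, 3 and 7 dpi, and chondrocytes were 21.2% at 7 dpi. Myogenic cells were 1.60%, 0.720%, 2.01% and 0.855%. The shares of UMIs below follow the size and depth of a class as well as its level, so they do not measure enrichment. Fgf2, Fgf7, Fgf10 and Fgf18 had between 96.0% and 99.6% of their UMIs in the mesenchymal class in Uninjured and at 1 and 3 dpi, and between 73.1% and 88.1% at 7 dpi, when chondrocytes held 8.10% to 18.6%. Fgf1 was spread more widely. The mesenchymal class held 79.5%, 71.4%, 73.0% and 52.2% of its UMIs over the 4 libraries, and Schwann cells (7.65% to 20.4%) and mural cells (pericytes and smooth muscle cells, up to 17.3%) held much of the rest, with 11.2% in chondrocytes at 7 dpi. Among the receptors, Fgfr1 was mesenchymal for 94.6% of its UMIs in Uninjured and 69.6% at 7 dpi, and Fgfr2 for 98.4% and 54.3%. Fgfr3 had only 20 UMIs in Uninjured, 9 in mesenchymal and 9 in endothelial cells, and 2160 UMIs at 7 dpi, 82.6% of them in chondrocytes. Fgfr4 was the only member with more UMIs in myogenic cells than in any other class in every library, at 72.2%, 56.3%, 55.6% and 41.0%, and 23.3% to 39.5% of its UMIs lay in cells that no class could claim.

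**Figure D2:**
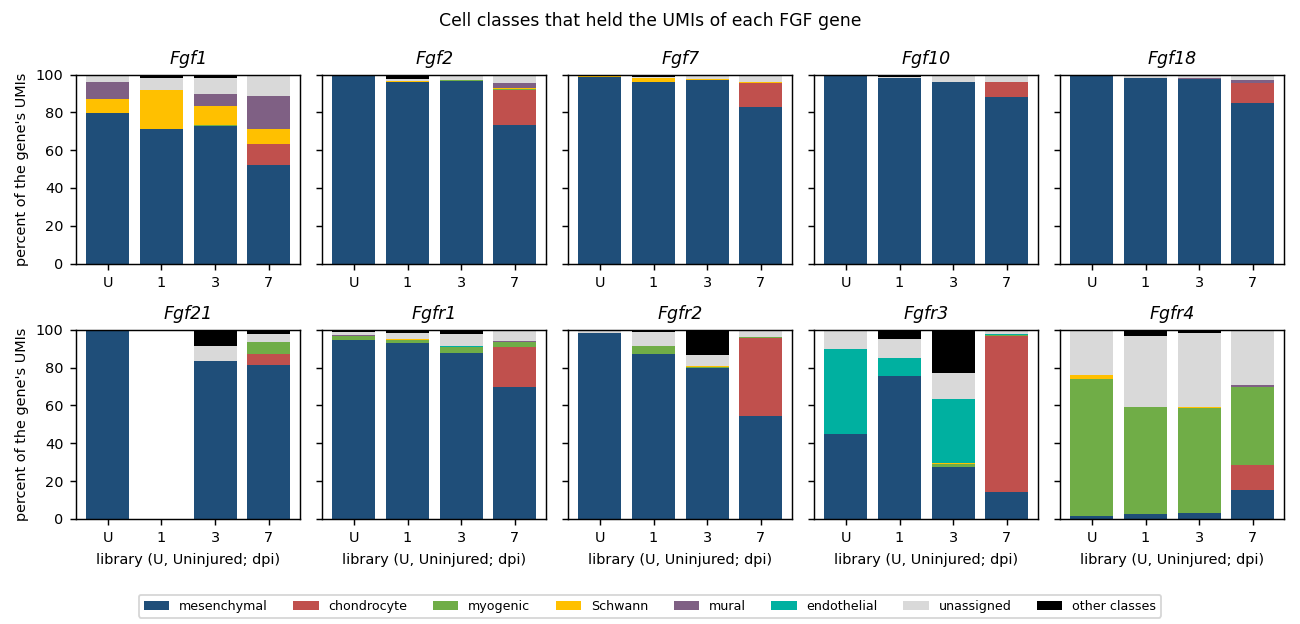
Share of the UMIs of each FGF gene (y axis, percent) held by each cell class, for the 4 libraries (x axis; U, Uninjured; 1, 3 and 7 dpi); gray marks unassigned cells, black all other classes and an empty column a gene with 0 UMIs. Chondrocytes took 82.6% of the Fgfr3 UMIs at 7 dpi, and myogenic cells 72.2% of the Fgfr4 UMIs in Uninjured.

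The question of the time series was how the mesenchymal cells change between injury and the appearance of cartilage. Of the ligands, Fgf18 differed most between Uninjured and 1 dpi. Its level in mesenchymal cells was 115 CPM in Uninjured (8866 UMIs), 28.9 at 1 dpi, 29.0 at 3 dpi and 15.6 at 7 dpi, so the 3 libraries from injured muscle all lay far below the uninjured one. At 1 dpi this was 3.98-fold lower (95% interval 3.72 to 4.25). The share of mesenchymal cells with an Fgf18 UMI was 52.5%, 19.8%, 18.3% and 6.54%, and after each cell was thinned to 1000 UMIs, so that depth was equal, it was 10.2%, 2.23%, 2.84% and 1.495%. The lower level at 1 dpi was present in both fibroblast subsets, at 32.7 against 138 CPM in adventitial fibroblasts and at 29.1 against 95.1 in interstitial fibroblasts. The change from 3 to 7 dpi was not shared in this way. Adventitial fibroblasts went from 39.0 to 57.2 CPM (ratio 1.47, 1.22 to 1.76) and interstitial fibroblasts from 30.4 to 30.8, while injury progenitors (cells with at least 2 of Lrrc15, Tnn, Postn and Aspn), whose number was 840 at 3 dpi and 5703 at 7 dpi, had 20.3 and 10.7 CPM. Fgf18 lies on chromosome 11 at 33116970 to 33147400 in RefSeq on GRCm38.p6, the build of the positions that follow.

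Fgf2 (chromosome 3, 37348477 to 37410106), which overlaps an antisense transcript, Fgf2os, so that its reads rest on the strand handling of the aligner, kept its level until 3 dpi and was lower at 7 dpi. Mesenchymal cells held 41.4, 48.0, 44.5 and 8.69 CPM in the 4 libraries, and the first 3 libraries lay close together. Between 3 and 7 dpi it was 5.12-fold lower (4.65 to 5.65). The lower level was seen in each subset with enough cells. It was 2.99-fold lower (2.38 to 3.79) in adventitial fibroblasts, 3.45-fold in interstitial fibroblasts, 3.81-fold in injury progenitors and 5.28-fold (3.70 to 7.45) in tenocytes. Tenocytes were mesenchymal cells with at least 3 of Tnmd, Scx, Mkx, Thbs4, Kera and Fmod, and numbered 104, 41, 134 and 2033 in the 4 libraries. Injury progenitors that passed this gate were counted as tenocytes. Whether the tenocytes of 3 and 7 dpi were the same kind of cell was not tested. The thinned share of mesenchymal cells with a UMI was 4.75% at 3 dpi and 0.870% at 7 dpi.

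Fgf10 (chromosome 13, 118714699 to 118792573), a ligand of limb and lung mesenchyme, stood at 10.5, 18.5, 9.03 and 3.18 CPM in mesenchymal cells and was highest at 1 dpi. In interstitial fibroblasts the level at 1 dpi was 18.9 against 7.94 CPM in Uninjured, a ratio of 2.38 (2.04 to 2.78), and in adventitial fibroblasts it was 18.7 against 13.3, a ratio of 1.41 (1.19 to 1.67). From 1 to 3 dpi the gene was 2.05-fold lower (1.82 to 2.31) in all mesenchymal cells, just past the limit of 2-fold used here. Without the injury progenitors it was within 2-fold, at -0.76 on the log2 scale. From 3 to 7 dpi it was 2.84-fold lower (2.40 to 3.39) in all mesenchymal cells. Inside the subsets it was 2.26-fold lower (1.35 to 4.01) in adventitial and 1.43-fold (1.05 to 1.97) in interstitial fibroblasts. Injury progenitors were 1.33-fold lower (0.808 to 2.15), and mesenchymal cells that no subset claimed 1.11-fold (0.783 to 1.58). Injury progenitors, at 2.42 and 1.82 CPM, numbered 840 and 5703. The part of class make-up was not tested. Tenocytes, the cells of tendon, had 0 UMIs of Fgf10 in Uninjured and at 3 dpi, which allows up to 2.78 and 1.78 CPM, and 0.906 CPM at 7 dpi, when interstitial fibroblasts stood at 9.82.

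Fgf7 (chromosome 2, 126034658 to 126091185), the keratinocyte growth factor, was the steadiest ligand, at 37.4, 46.4, 43.0 and 43.0 CPM, and its ratio from 3 to 7 dpi was 0.999 (0.944 to 1.06). Fgf1 (chromosome 18, 38838672 to 38929470), the acidic FGF that lacks a signal peptide, stood at 11.99, 9.37, 5.78 and 4.41 CPM in mesenchymal cells, so each library lay below the one before it, by less than 2-fold at each step. The levels at 3 and 7 dpi were under the highest B cell level, 7.43 CPM on 2 UMIs at 7 dpi. At 3 dpi itself B cells and NK or T cells had 0 UMIs of Fgf1. Inside the fibroblast subsets the falling order of the mesenchymal class was not seen. Adventitial fibroblasts held 21.9, 20.1, 15.96 and 22.1 CPM. Interstitial fibroblasts held 4.20, 2.57, 3.93 and 6.99, within the range of the B cells pooled over the libraries. Adventitial fibroblasts were 3004 of 8410 mesenchymal cells in Uninjured and 412 of 10875 at 7 dpi. Fgf21 (chromosome 7, 45613890 to 45615490) was near its limit of detection, with 18, 0, 10 and 39 UMIs over all mesenchymal cells of the 4 libraries. The 0 at 1 dpi allows up to 0.0865 CPM, and the 7 dpi level was 0.670.

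Among the receptors, Fgfr1 (chromosome 8, 25518759 to 25575718), the main receptor of fibroblasts and mesenchymal progenitors stood at 270, 316, 282 and 163 CPM in mesenchymal cells, and at 7 dpi it was 1.73-fold lower than at 3 dpi (1.68 to 1.77). The lower level at 7 dpi held in adventitial fibroblasts (253 against 342 CPM), in interstitial fibroblasts (217 against 289) and in injury progenitors (148 against 254). A UMI was found in 86.2% of mesenchymal cells in Uninjured and in 45.3% at 7 dpi, and in 24.5% and 14.4% after thinning.

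Fgfr2 (chromosome 7, 130162451 to 130266808) moved the other way. Mesenchymal cells had 3.19, 3.84, 3.83 and 30.1 CPM, so the 7 dpi library stood apart. The highest NK or T cell level, 2.93 CPM (7 UMIs), also came from 7 dpi. NK or T cells of Uninjured, 1 and 3 dpi had 0, 1 and 2 UMIs (up to 0.385 CPM). B cells of these libraries had 0, 0 and 2 UMIs (up to 2.47 CPM). After thinning, 0.446% or less of the mesenchymal cells in the first 3 libraries and 2.95% at 7 dpi had an Fgfr2 UMI. The highest share in B and NK or T cells was 0.654%, in NK or T cells at 7 dpi. The ratio from 3 to 7 dpi was 7.86 (6.79 to 9.14). It was largest in injury progenitors, at 36.5 against 3.84 CPM (7.07 to 13.1 as the interval of the ratio), and was also above 1 in interstitial fibroblasts (13.0 against 4.29), adventitial fibroblasts (7.67 against 2.35) and tenocytes (32.6 against 11.3). Fgfr3 (chromosome 5, 33721724 to 33737068) had 9, 31, 36 and 308 UMIs, or 0.117, 0.894, 0.686 and 5.29 CPM, in the mesenchymal cells. B cells and NK or T cells had 0 or 1 Fgfr3 UMI in each library. The mesenchymal levels of Uninjured, 1 and 3 dpi were under the highest of these, 3.71 CPM on 1 UMI. They are not read as clear of background. The 7 dpi level was 7.71-fold that of 3 dpi (5.45 to 11.2). Injury progenitors held 168 against 14 UMIs (ratio 5.46, 3.16 to 10.2) and tenocytes 95 against 1. Interstitial fibroblasts had 7 against 7 UMIs (ratio 3.12, 0.935 to 10.4) and adventitial fibroblasts 2 against 2, with intervals that included 1. At 7 dpi NK or T cells had 1 Fgfr3 UMI (0.418 CPM) and B cells 1 (3.71 CPM). Col2a1, the collagen of cartilage, was found at 130 CPM in these NK or T cells and at 179 CPM in the mesenchymal cells. The chondrocyte gate required a Col2a1 UMI, so it lowers the Col2a1 level of the mesenchymal class by itself. Sox9, which no gate used, stood at 119 CPM in these mesenchymal cells and at 8.78 CPM in the NK or T cells.

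The Fgfr3 difference between Uninjured and 1 dpi, at a ratio of 7.67 (3.56 to 18.3), rested on few cells. The 31 UMIs at 1 dpi lay in 18 cells, 11 of them among the 26 cells that passed the injury progenitor gate at 1 dpi, and without this gate in both libraries 9 UMIs stood against 9, at 0.262 and 0.117 CPM. The 18 cells carried Bglap2, an osteocalcin gene of osteoblasts, at 2781 CPM against 52.0 CPM in the other mesenchymal cells of that library, and Ibsp, bone sialoprotein, at 754 against 5.11 CPM. In Uninjured the 9 cells with an Fgfr3 UMI had 0 CPM of Bglap2 and 106 CPM of Ibsp, against 0.208 and 0.0130 CPM in the others. At 3 dpi the 35 cells with an Fgfr3 UMI had Bglap2 at 1.55 against 0.540 CPM and Ibsp at 32.7 against 9.49. At 7 dpi the 269 such cells had Bglap2 at 0.443 against 0.339 CPM and Ibsp at 2126 against 480. The part that cells of bone surfaces had in the Fgfr3 value at 1 dpi was not tested, and these bone genes were chosen after the values had been seen. Fgfr4 (chromosome 13, 55152818 to 55168759) was all but absent from mesenchymal cells, with 5, 5, 18 and 50 UMIs.

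**Figure D3:**
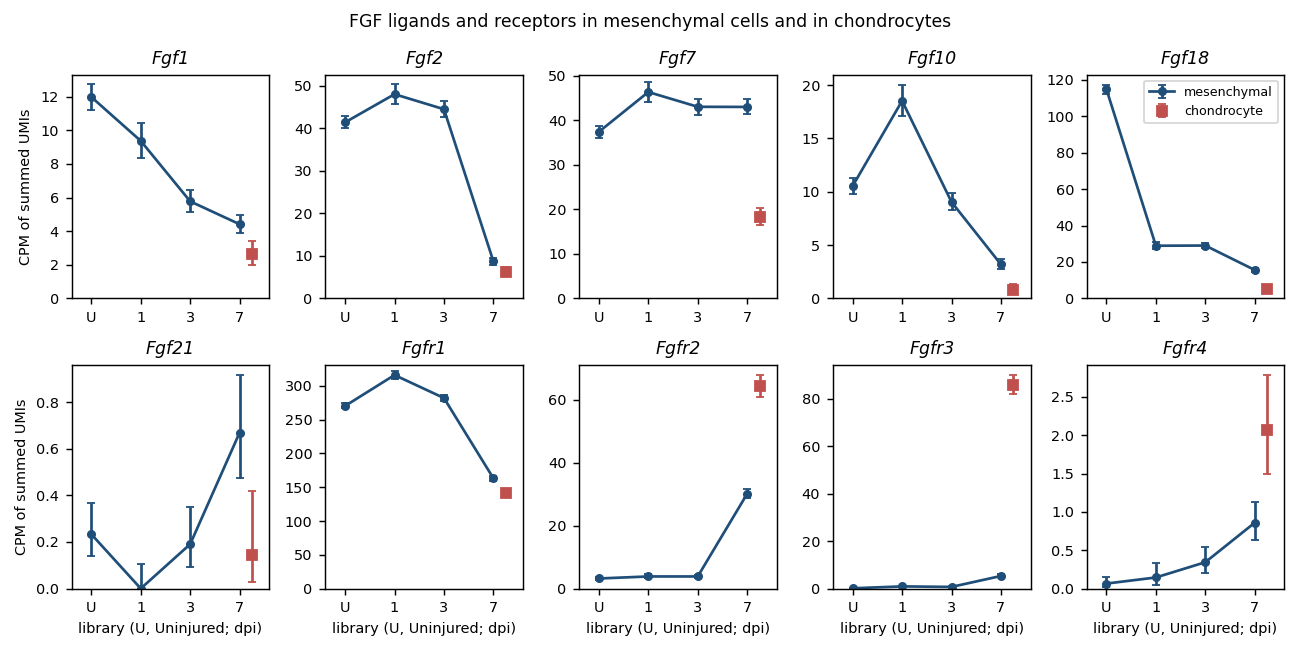
CPM of each FGF gene (y axes, linear and starting at 0) in mesenchymal cells of the 4 libraries (blue circles, joined by lines for reading only; U, Uninjured; 1, 3 and 7 dpi) and in chondrocytes at 7 dpi (red squares), with exact 95% Poisson intervals of counting error. Fgf18 was 115 CPM in Uninjured and 29.0 or less in the 3 injured libraries, Fgf2 was 8.69 at 7 dpi, and Fgfr3 was 85.7 in chondrocytes against 5.29 in the other mesenchymal cells.

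These changes can be set beside those of all genes with at least 30 UMIs in a comparison. Between Uninjured and 1 dpi, 1 of the 10 members was at least 2-fold higher (Fgfr3), 1 was at least 2-fold lower (Fgf18), 6 lay within 2-fold and 2 had too few UMIs, while 9.32% of the 14587 genes read were higher and 4.94% lower. The median log2 ratio of all genes was 0.17 in this comparison, and relative to it Fgf18 stood at -2.16 and Fgfr3 at 2.77 on the log2 scale. Between 1 and 3 dpi 0 members were higher and 1 was lower (Fgf10), against 6.27% and 6.02% of 14428 genes. Without the injury progenitors the Fgf10 call was lost and Fgfr3 was past 2-fold higher in this step, at 1.05 on the log2 scale against -0.38 with them. Between 3 and 7 dpi 4 members were higher (Fgf21, Fgfr2, Fgfr3 and Fgfr4) and 2 lower (Fgf2 and Fgf10), against 11.4% and 7.36% of 15117 genes. The Fgf21 call, on 39 and 10 UMIs, was lost after thinning and with a minimum of 100 UMIs, as was that of Fgfr4. The Fgfr4 call was also lost with doublets left in, at a log2 ratio of 0.070, and turned to -0.068 without any filter on cells. Both mesenchymal levels of Fgfr4 were under the highest level of B and NK or T cells, 1.23 CPM, and are not read as clear of background.

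At 7 dpi the chondrocytes and the other mesenchymal cells came from the same library, so the comparison between them was free of differences between libraries. The receptors split. Fgfr3 stood at 85.7 CPM in chondrocytes (1785 UMIs) against 5.29 in the other mesenchymal cells, a ratio of 16.2 (14.4 to 18.3). A UMI was found in 24.5% of chondrocytes and 2.47% of other mesenchymal cells, and in 7.15% and 0.655% after thinning, with 0.109% or less in B and NK or T cells. Fgfr2 stood at 64.3 against 30.1 CPM (ratio 2.14, 1.99 to 2.29), which fell under 2-fold, to 0.72 on the log2 scale, when each cell was weighted alike. The Fgfr2 call was also lost after thinning. Fgfr4 reached 2.06 CPM (43 UMIs) against 0.858, a small level in both. The 0.858 CPM was under the highest Fgfr4 level of B and NK or T cells, 1.23 CPM, and is not read as clear of background. Fgfr1 was 141 against 163 CPM (ratio 0.867, 0.831 to 0.903). Of the ligands, 4 were at least 2-fold lower in chondrocytes. Fgf7 was 18.3 against 43.0 CPM (2.35-fold lower, 2.11 to 2.63), Fgf18 5.33 against 15.6 (2.92-fold, 2.40 to 3.59), Fgf10 0.816 against 3.18 (3.89-fold, 2.37 to 6.82), and Fgf21 had 3 UMIs against 39. The Fgf7 call was lost when each cell was weighted alike (-0.96 on the log2 scale), and the Fgf21 call after thinning and with a minimum of 100 UMIs. The Fgfr4 call was lost under all 3 of these settings. Fgf1 and Fgf2 were lower by less than 2-fold. At 7 dpi B cells had 7.43 CPM of Fgf1 (2 UMIs) and 3.71 of Fgf18 (1 UMI), and NK or T cells 0 UMIs of both. The chondrocyte level of Fgf1 (2.64 CPM, 55 UMIs) was under the B cell value and that of Fgf18 (111 UMIs) above it. That Fgf18 level, 5.33 CPM, was still under the highest B cell level of the pooled libraries, 8.96 CPM. Neither is read as clear of background. In all, 3 members were higher and 4 lower, against 4.55% and 6.41% of the 14733 genes read. The median log2 ratio of all genes was -0.13, and relative to it Fgfr3 stood at 4.15 and Fgfr2 at 1.23.

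Within the chondrocytes, those with at least 3 UMIs of Col10a1, the collagen of hypertrophic cartilage, numbered 641. The other 3671 had fewer than 3 and are called chondrocytes without Col10a1. The median UMIs per cell were 3758 and 3222, and a cut on raw UMIs depends on depth. From injury progenitors to chondrocytes without Col10a1 to hypertrophic chondrocytes, Fgfr3 stood at 6.38, 73.1 and 155 CPM. Each was above the one before, by 11.4-fold (9.74 to 13.5) and then by 2.13-fold (1.91 to 2.36). Fgfr2 had another order, with 36.5, 70.9 and 27.8 CPM, so it was highest in the chondrocytes without Col10a1 and 2.55-fold lower (2.06 to 3.20) in the hypertrophic cells. Fgfr1 stood at 148, 131 and 200 CPM, with the highest level in the hypertrophic cells (1.53-fold over the other chondrocytes, 1.40 to 1.67). Fgfr4 had 21, 39 and 4 UMIs in the 3 subsets, and its intervals overlapped between the last 2. No ligand differed beyond its counting interval between hypertrophic and other chondrocytes, where Fgf7 had 15.9 and 18.7 CPM and Fgf18 5.94 and 5.22. That the intervals include 1 does not show that the levels were alike, since Fgf18 rested on 19 and 92 UMIs.

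**Figure D4:**
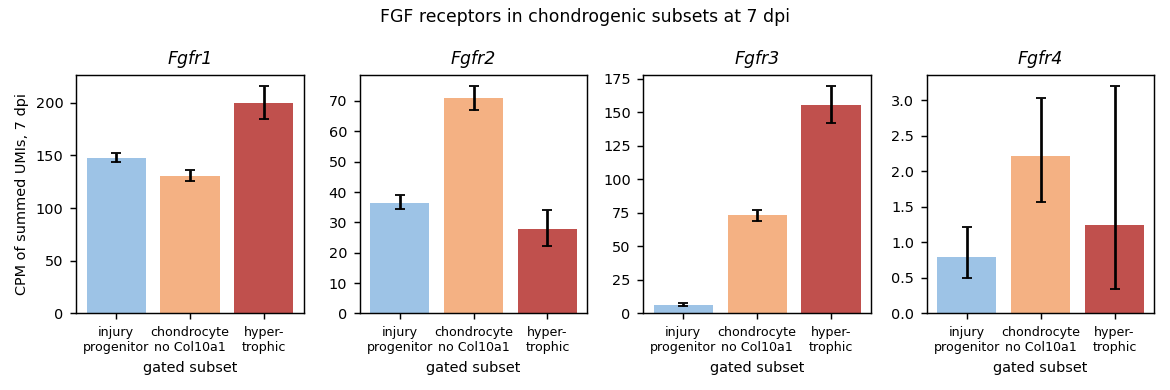
CPM of the 4 FGF receptors (y axis, linear, separate scale for each gene) at 7 dpi in injury progenitors, chondrocytes without Col10a1 and hypertrophic chondrocytes (bars), with exact 95% Poisson intervals. Fgfr3 was highest in hypertrophic cells (155 CPM) and Fgfr2 in chondrocytes without Col10a1 (70.9 CPM).

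Fibroblasts of muscle fall into adventitial cells around vessels (here marked by Pi16, Dpp4, Sema3c and Cd55) and interstitial cells between fibres (Smoc2, Col15a1, Lpl and G0s2). Their contrast could be taken inside each of the 4 libraries. Fgf1 was higher in adventitial fibroblasts in 4 of 4 libraries, with ratios of 5.23, 7.84, 4.06 and 3.16, and so was Fgf2, with 4.25, 3.98, 2.10 and 2.42, all with intervals above 1. In Uninjured this was 75.0 against 17.6 CPM for Fgf2 and 21.9 against 4.20 CPM for Fgf1. The interstitial levels of Fgf1 lay within the range of the B cells pooled over the libraries. In the same library, B cells had 5.37 CPM (3 UMIs) in Uninjured and 7.43 CPM (2 UMIs) at 7 dpi, above the interstitial 4.20 and 6.99. The size of these 2 ratios thus rests on a level that B cells also reached. At 1 and 3 dpi B cells had 0.226 CPM and 0 UMIs, against 2.57 and 3.93 CPM in interstitial fibroblasts. Fgfr1 was higher in adventitial fibroblasts by a small and steady ratio of 1.18, 1.17, 1.18 and 1.16. Fgf18 ratios were 1.45, 1.12, 1.28 and 1.86, and the interval of the 1 dpi value included 1 (0.980 to 1.28). Fgf10 went from a ratio of 1.67 (1.44 to 1.95) in Uninjured to 0.990, 0.875 and 0.553 (0.300 to 0.973) at 1, 3 and 7 dpi, and Fgf7 from 1.30 and 1.33 to 0.902 and 0.748 (0.600 to 0.929). The 2 ligands thus changed sides between the first and the last library. The change of the ratio itself was not tested, since each time point was 1 library.

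**Figure D5:**
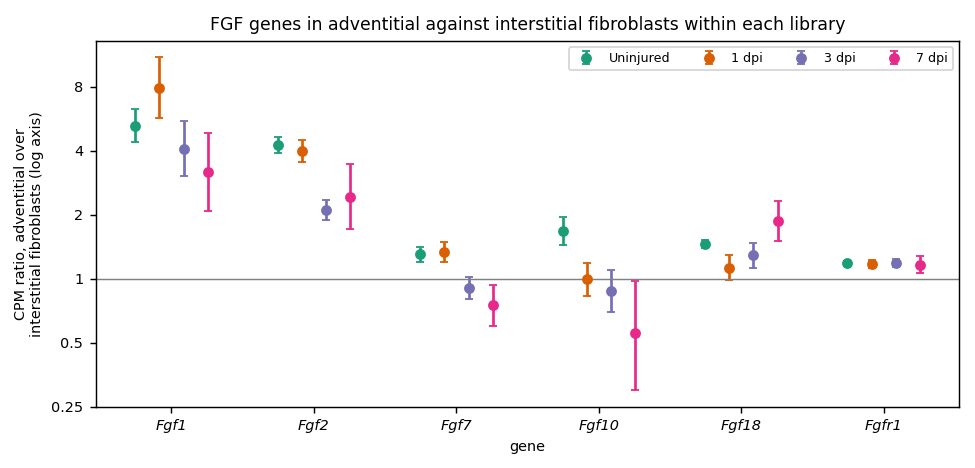
Ratio of CPM in adventitial over interstitial fibroblasts (y axis, log scale) for 6 FGF genes in each library, with exact conditional binomial 95% intervals of counting error; the gray line marks a ratio of 1. Fgf1 and Fgf2 were above 1 in all 4 libraries, and Fgf10 was at 1.67 in Uninjured and 0.553 at 7 dpi.

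In myogenic cells, of which 165, 69, 253 and 174 were gated, Fgfr4 stood at 167, 288, 99.4 and 139 CPM in Uninjured and at 1, 3 and 7 dpi, against 0.858 CPM or less in mesenchymal cells. The level was highest at 1 dpi (1.72-fold over Uninjured, 1.35 to 2.19) and lowest at 3 dpi (2.90-fold under 1 dpi, 2.29 to 3.63). Satellite cells, the muscle stem cells, held 224, 288, 111 and 195 CPM. Myoblasts with Myog, a factor of terminal differentiation, numbered at least 50 at 3 and 7 dpi and stood at 83.3 and 71.4 CPM, which was 1.33-fold (1.05 to 1.69) and 2.73-fold (1.81 to 4.23) lower than in the satellite cells of the same library. Such myoblasts were 34 of the 165 myogenic cells in Uninjured and 0 of the 69 at 1 dpi. Between these libraries the satellite cells differed less than the whole class, and the part of class make-up was not tested. Since many Fgfr4 UMIs lay in unassigned cells, the values were also taken with a gate on marker level instead of marker number, a choice made after the data had been seen. Myogenic cells then held 86.8%, 75.4%, 84.4% and 50.3% of the Fgfr4 UMIs at 171, 308, 84.9 and 138 CPM. Fgfr1 in myogenic cells stood at 345, 561, 154 and 315 CPM, also highest at 1 dpi and lowest at 3 dpi, and was also lower in the Myog cells, at 123 against 175 CPM at 3 dpi and 233 against 383 at 7 dpi. Satellite cells had 0 UMIs of Fgf1, Fgf7, Fgf10 and Fgf18 in every library, which allows up to 3.69, 8.38, 1.64 and 5.74 CPM. The limit at 7 dpi was above the mesenchymal levels of Fgf1 (4.41 CPM) and Fgf10 (3.18 CPM) in that library. Fgf2 had 3, 3, 5 and 5 UMIs in satellite cells, where 3 UMIs made 3.69, 8.38, 1.64 and 5.74 CPM. In Uninjured and at 1 and 3 dpi these counts lay below the mesenchymal levels of Fgf2 given above. At 7 dpi the mesenchymal level was itself low, so the 5 UMIs do not show a lower level there.

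Schwann cells, the glia of peripheral nerve, held Fgf1 at 100, 155, 136 and 95.7 CPM, above the mesenchymal level in all 4 libraries, and Fgf7 at 37.2, 58.2, 38.8 and 19.6 CPM. Mural cells could be read in Uninjured and at 7 dpi. Fgf1 was 114 and 43.0 CPM there (2.66-fold lower at 7 dpi, 1.97 to 3.58), Fgf18 45.9 and 9.10 (5.04-fold, 2.83 to 9.32) and Fgfr1 137 and 44.0 (3.10-fold, 2.34 to 4.13). Endothelial cells, with 28, 17, 128 and 75 cells in the 4 libraries and thus fewer than 50 in the first 2, had Fgfr3 at 55.6 CPM (9 UMIs), 38.3 CPM (4 UMIs), 117 CPM (44 UMIs) and 9.97 CPM (3 UMIs). Monocytes and macrophages held Fgfr1 at 66.5 CPM in Uninjured, 8.59 at 1 dpi, 33.1 at 3 dpi and 39.8 at 7 dpi. The 1 dpi level lay inside the range of B and NK or T cells pooled over the libraries. It was above those of its own library, at 5.43 and 4.79 CPM (24 UMIs each). The 35 keratinocytes at 3 dpi, too few for the class comparisons, had 25 UMIs of Fgfr2 and 30 of Fgfr3, at 113 and 136 CPM.

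The other genes of the pathway were counted as 68 genes in 7 lists, the other secreted ligands, the intracellular FGF homologous factors, the co-receptors and carriers, the enzymes that modify heparan sulfate, the signal transducers, the feedback inhibitors and the response transcription factors. In mesenchymal cells from Uninjured to 1 dpi, 3 of 53 genes read were at least 2-fold higher and 2 lower, where 9.32% and 4.94% of all genes were, with a median log2 ratio of 0.26 beside 0.17 for all genes. The 3 highest were Sdc3 and Sdc4, syndecans that carry heparan sulfate (39.4 against 12.3 CPM and 232 against 95.3), and Etv4, a transcription factor induced by FGF signalling (2.54 against 1.24). The 3 lowest were Fgf9 (1.27 against 5.04 CPM), Hs6st2 (0.721 against 1.59) and Flrt3 (7.27 against 13.9, within 2-fold). Of the 11 feedback inhibitors 0 passed the limit at 1 dpi, with a median log2 ratio of 0.49.

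From 1 to 3 dpi 2 of 53 genes were higher and 4 lower, where 6.27% and 6.02% of all genes were, with a median log2 ratio of -0.19 beside -0.09 for all genes. Hs6st2, a sulfotransferase of heparan sulfate, stood at 6.40 against 0.721 CPM, Etv4 at 5.26 against 2.54 and Sdc1 at 32.8 against 17.8, while Frs3, Gpc3 and Fgf16 were lowest (Gpc3, a glypican, at 44.4 against 103 CPM). From 3 to 7 dpi 5 of 54 genes were higher and 5 lower, where 11.4% and 7.36% of all genes were, with a median log2 ratio of -0.12 beside -0.05. Gpc1, Fgfrl1 and Sdc1 led, at 68.9 against 15.8, 33.1 against 10.1 and 85.3 against 32.8 CPM. Fgf12 (8 against 25 UMIs), Sdc4 (88.2 against 266 CPM) and Spry4, a Sprouty inhibitor (8.05 against 22.1), were lowest. Of the 6 response transcription factors 0 were higher and 1 lower, with a median log2 ratio of -0.86. Of the 11 feedback inhibitors 0 were higher and 1 lower, with a median of -0.30.

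In chondrocytes against the other mesenchymal cells at 7 dpi, 4 of 52 genes were higher and 8 lower, where 4.55% and 6.41% of all genes were, with a median log2 ratio of -0.22 beside -0.13. The 4 that were higher all belonged to the 13 co-receptors, decoys and carriers read. Sdc4 stood at 363 against 88.2 CPM, Fgfrl1, a receptor that lacks the kinase domain, at 132 against 33.1, and Sdc3, which is prominent in early cartilage, at 201 against 51.8. Fgf16, Fgf9 and Etv1 were lowest. Of the signal transducers 8 of 8 read lay within 2-fold, and 1 of the 11 feedback inhibitors was lower.

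Genes whose level ran most alike to a member were found from the Pearson correlation of log2(CPM + 1) over 35 combinations of class and library, which share libraries and whose classes share depth, so the values are descriptive. Fgfr4 was most like Pax7, Myf5 and Myod1 (r = 0.97, 0.96 and 0.96), which are markers in the myogenic gate. Fgfr1 was most like Nfix, Acvr1 and Pmepa1 (0.94, 0.89 and 0.88), Acvr1 being a BMP receptor known from fibrodysplasia ossificans progressiva. Fgf10 ran with Hand2os1 (0.96), Fgf7 with Clip4 (0.90) and Fgf18 with Tbx5 (0.88), a limb transcription factor. Fgfr3 ran with Eva1a (0.84) and Fgf2 with Adamts5 (0.85), an aggrecanase.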

How the data were processed

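Per the labels and methods, the authors demultiplexed and aligned the reads with Cell Ranger 5.0.0, which uses STAR, and deposited UMI counts per gene and called cell as whole numbers without scaling. The submitters' processing notes name the build mm10 and Seurat 3.1.1. The protocol also mentions down-sampling of reads for aggregation, and the sources do not say if it came before these counts, nor how strand was handled. Fgf2, Fgf7, Fgf10, Fgf1 and Fgfr1 overlap other annotated genes, whose reads may be shared. Here, cells within 2 SD of the library mean of log10 UMIs and log10 genes and with at most 10% mitochondrial UMIs were kept. Doublets were scored against simulated pairs of cells, and the 7.5% with the highest scores were removed. A class needed at least 3 of its 8 markers detected and 2 more than any other class. Chondrocytes needed 4 of 8 cartilage markers and a Col2a1 UMI. Counts were summed per class and library. Ratios carry exact conditional binomial intervals, levels exact Poisson intervals and shares of cells Clopper-Pearson intervals, all at 95%. With 1 library a group no test was run. Genes with at least 30 UMIs over both sums were read, and a ratio of 2 was the limit. The members, marker lists and pathway lists were chosen with earlier results of these data known. All 10 members were named, as were the 3 pathway genes with the largest ratio in each direction and the 3 genes most alike in pattern (at least 200 UMIs). Of the latter, the leading gene is given where not all 3 are, and those of Fgf1 and Fgfr2 are not reported here. The ratio and interval code was tested on simulated data. Positions came from RefSeq (GRCm38.p6), which matched 10 of 10 members, and promoters matched 8. Alternatives were other cell filters, gates, scalings and limits. Scripts ran in Python 3.11.15 with pandas 2.3.3, scipy 1.17.1 and numpy 2.4.6, and matplotlib 3.10.9 drew the plots.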

Additional observations from a re-analysis of the deposited data

Results flagged for a closer look

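B cells and NK or T cells, which served as background, were left out here, as were pairs with fewer than 30 UMIs over both libraries. In 3 instances among the other classes, a member moved at least 2-fold in opposite directions over the same step. Both counting intervals were clear of 1. Differences between classes were not tested, since each time point was 1 library. From 1 to 3 dpi Fgfr1 had a ratio of 3.85 in monocytes and macrophages and of 0.274 in myogenic cells. In the B cells left out it had a ratio of 2.50 (1.10 to 5.29) over this step, on 24 and 11 UMIs. The level of monocytes and macrophages at 1 dpi, 8.59 CPM, lay inside the range of B and NK or T cells pooled over the libraries. From 3 to 7 dpi Fgfr1 had a ratio of 2.05 in myogenic cells and of 0.460 in endothelial cells, where it rested on 49 and 18 UMIs. From 3 to 7 dpi Fgfr3 had a ratio of 7.71 in mesenchymal cells and of 0.0854 in endothelial cells, where it rested on 44 and 3 UMIs in 128 and 75 cells.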

How the results depend on the processing

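No paired analysis was possible because each time point was 1 library. From Uninjured to 1 dpi the 2 members past 2-fold became 1 after thinning, with a minimum of 100 UMIs or without the injury progenitor gate (Fgfr3 was lost each time), and 4 with a minimum of 1 UMI. From 1 to 3 dpi the 1 member past 2-fold became 0 with limits on linear counts, after thinning, with the mean of single-cell CPM or with median scaling, 2 without cell filters, with doublets left in or at a limit of 1.5-fold, and 3 with a minimum of 1 UMI. Without the injury progenitor gate it stayed at 1, with Fgf10 lost and Fgfr3 gained (1.05 against -0.38 on the log2 scale). From 3 to 7 dpi the count of 6 stayed between 4 and 8. In chondrocytes the count of 7 became 4 after thinning (without Fgf21, Fgfr2 and Fgfr4) and with the mean of single-cell CPM (without Fgf7, Fgfr2 and Fgfr4). The Fgfr4 log2 ratio from 3 to 7 dpi turned to -0.068 without cell filters. Of 339 log2 ratios recomputed, 319 kept their sign. Counted by size, 261 of the 339 stayed inside the main counting interval and 77 moved outside it. The remaining 1, past 2-fold in the main setting, reversed its sign. Levels of 10 CPM or more numbered 60 of 350, and 60 to 68 under the alternatives. The marker-level gate and the removal of injury progenitors were added after seeing the data. The causes were not tested. Fgf21, Fgfr3 and Fgfr4 rested on 50 UMIs or fewer in mesenchymal cells, except Fgfr3 at 7 dpi.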
